A study of Mus musculus with 6 samples.

Results

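The peroxisome genes described here were 13 peroxins, which build and maintain the organelle, and 27 enzymes of its matrix. They form a list of 40 genes chosen by name, all of which were found by symbol among the 56305 Ensembl genes of the table. RNA was measured by RNA-seq of polyadenylated transcripts in 3 WT and 3 Vps15LKO livers of male mice, which were 5 weeks old, ate ad libitum and were collected at ZT6, that is 6 h after lights on. Vps15LKO mice (AlbCre+;Vps15 f/f) carry a liver deletion in the gene encoding Vps15, which is the regulatory subunit of class 3 PI3K, a lipid kinase required for autophagy and endocytosis. Cre is driven there by the albumin promoter, which is active in hepatocytes, and deletion in other cell types of the liver was not measured here. By the study's account, the recombined gene still gives a shortened protein. The Cre and floxed alleles of the WT mice are not given in the sources used here. The comparison of the genotypes asks which peroxisome transcripts differ in liver with Vps15 deleted by this Cre.

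Peroxisomes are membrane-bound organelles that are abundant in hepatocytes. They shorten very long-chain and branched-chain fatty acids and the side chain of bile acid precursors, begin the synthesis of ether lipids, and detoxify glyoxylate and hydrogen peroxide. Their enzymes are made in the cytosol and imported whole, by receptors that dock at the membrane, release their cargo inside and are pulled back out by ubiquitin and an ATPase. In rodent liver, many of the fatty acid enzymes are transcriptional targets of the nuclear receptor PPARα, and surplus peroxisomes are removed by autophagy.

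Values are normalized counts, the reads of a gene divided by a DESeq2 size factor of the library. The recovered reads on genes ranged from 16137093 to 18110223 per library, and a tested peroxisome gene held between 58 and 74918 reads in a library. The size factors were 0.742 to 0.801 in WT and 1.23 to 1.41 in Vps15LKO libraries. With every library scaled instead to the same total of reads (total-read scaling), the median over all 15430 tested genes moved up by 0.72 on the log2 scale, so values under both scalings are given for the genes of the list whose calls differed between them. Pik3r4, the gene of Vps15, had 508, 573 and 459.7 normalized counts in WT and 341, 362 and 355 in Vps15LKO livers, a log2 fold change of −0.54 as deposited and 0.19 under total-read scaling, with the floxed part not counted apart. Summed hepatocyte markers made up 15.7% to 16.3% of the WT reads and 8.24% to 10.6% of the Vps15LKO reads. As deposited, 13 of 15 were called lower, none being at 0, where 33% of all tested genes were called lower and 33.5% higher. The other 2, Alb and Tf, had log2 fold changes of −1.48 and −0.65 with wide fitted errors (limma, standard errors 1.38 and 0.58). In all 15 every Vps15LKO liver was below every WT liver, as in 36.8% of all tested genes. Of the markers of other cells, 9 of 9 tested for cholangiocytes and progenitors were called higher, with 0.00568% to 0.00669% of the WT reads and 0.0901% to 0.194% of the Vps15LKO reads. So were 10 of 12 for macrophages (0.0311% to 0.0388% and 0.183% to 0.199%), 11 of 11 for stellate cells and fibroblasts (0.0310% to 0.0353% and 0.226% to 0.287%) and 6 of 7 for lymphocytes, while of 10 for endothelium 6 were lower and 3 higher as deposited and, under total-read scaling, where 66.7% of all tested genes were higher, 0 lower and 6 higher (0.0460% to 0.0511% of the WT reads and 0.0689% to 0.0740% of the Vps15LKO reads). In such bulk tissue, fewer hepatocytes and less RNA of a gene per hepatocyte cannot be told apart. The part of cell makeup in the peroxisome results was not tested.

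As deposited, most peroxisome transcripts were lower in Vps15LKO liver, among peroxins and enzymes alike. Of the 40 genes, 39 passed the filter of 20 normalized counts in 3 livers, and 36 of them were called lower, 1 was called higher (Agps) and 2 were not called (Crat and Nudt19). The threshold for a call was an adjusted p of 0.05 (limma, Benjamini-Hochberg over all tested genes) together with a fold of 1.2. Among all tested genes 33% were called lower and 33.5% higher, and in the quintile with the highest mean level, which held 26 of the 39, 57.1% were lower and 18.3% higher. Of these 26 abundant peroxisome genes 24 were lower, and of the 13 outside that quintile 12 were lower. The same 36 genes had every Vps15LKO liver below every WT liver, a lack of overlap found in this direction for 36.8% of all tested genes (73.2% in either direction) and 61.5% of that quintile.

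The median log2 fold change was −1.26 over the 39 genes, −0.02 over all tested genes and −0.41 over the most abundant quintile. It was −0.99 for the peroxins, which ranged from −1.52 to −0.58, and −1.56 for the enzymes, which ranged from −4.22 to 0.64. Under total-read scaling, 23 of the 39 were lower, 4 were higher and 12 were not called, where 11.1% of all tested genes were lower and 66.7% higher, and 26% and 51.4% of the most abundant quintile. The median of the 39 was then −0.53, and −1.26 relative to the shift in the median of all genes. The peroxins split into 7 lower and 6 not called, and the enzymes into 16 lower, 4 higher (Acox2, Crat, Nudt19 and Agps) and 6 not called.

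**Figure D1:**
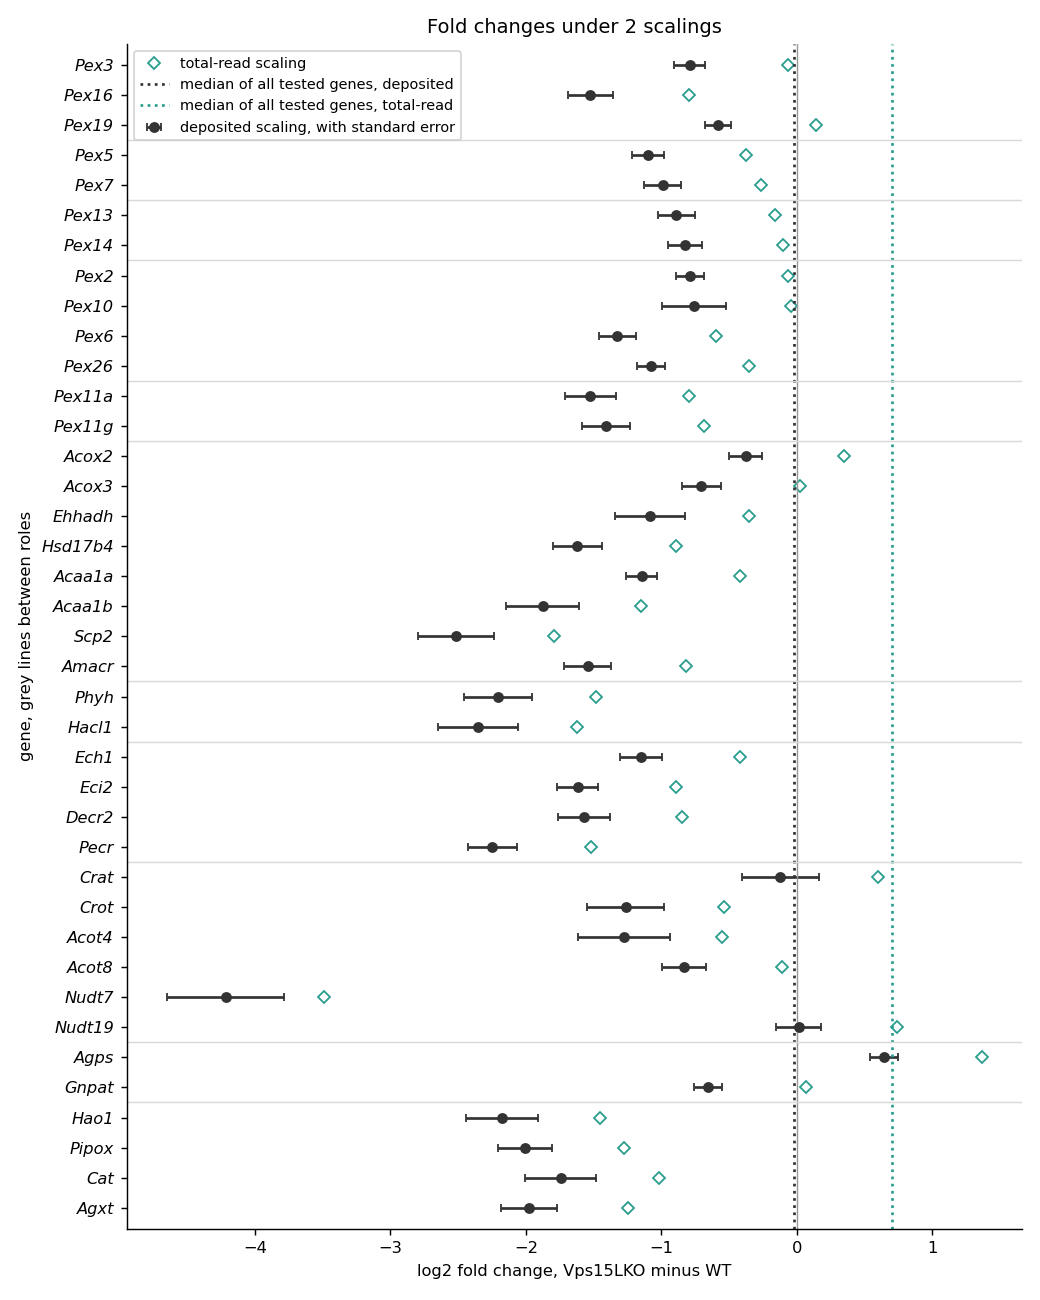
Log2 fold change (Vps15LKO minus WT, horizontal axis) of each tested gene in order of role, with filled points and standard error bars for the deposited scaling and open diamonds for total-read scaling. Dotted lines mark the all-gene median under each scaling. Nudt7 lies farthest to the left at −4.22, and Agps is the rightmost filled point at 0.64.

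The share of a library's reads does not depend on a size factor, and it is the scale that total-read scaling uses. The 40 genes together held 1.32% to 1.44% of the counted reads in the WT livers and 0.522% to 0.803% in the Vps15LKO livers, with no overlap. The most abundant quintile of all tested genes held 84.0% to 85.6% in WT and 72.8% to 76.6% in Vps15LKO livers, also without overlap. The enzymes held 1.26% to 1.37% in WT and 0.470% to 0.744% in Vps15LKO livers. The peroxins held 0.0651% to 0.0681% in WT and 0.0519% to 0.0587% in Vps15LKO livers. Cat, Scp2 and Phyh made up 60.7% to 63.5% of the reads on these genes in WT and 51.4% to 54.2% in Vps15LKO livers. Among the 39 genes, those with more reads per kilobase of exon in WT liver had the larger falls. Spearman's rho between this mean WT level and the log2 fold change was −0.74 (n = 39), −0.73 over the 26 enzymes and −0.36 over the 13 peroxins. The same held with a rho of −0.58 over 15412 of the tested genes, all from the same libraries and scaling. The WT livers enter both the level and the fold change, which by itself can make rho negative. How much of rho comes from that was not tested.

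**Figure D2:**
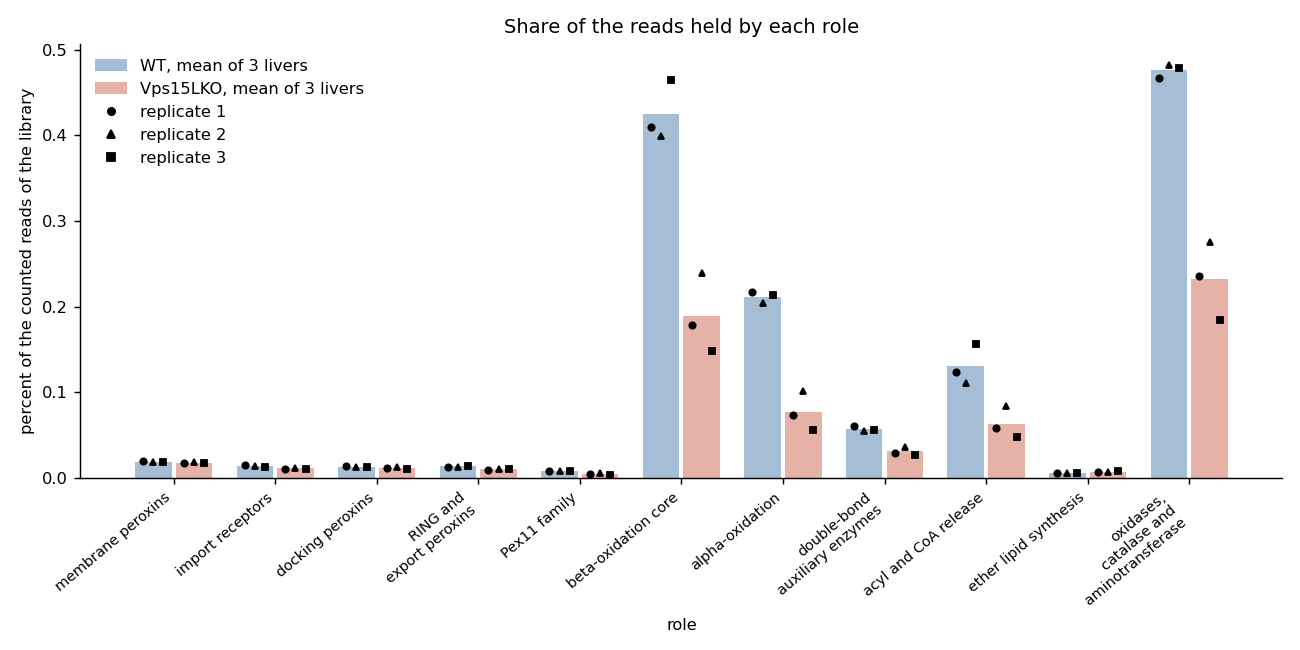
Percent of the counted reads of a library (vertical axis) held by the genes of each role, with bars for the mean of 3 livers per genotype and symbols for the single livers. The β-oxidation core held 0.400% to 0.464% in WT and 0.148% to 0.239% in Vps15LKO livers, and the oxidases, catalase and aminotransferase 0.467% to 0.483% and 0.184% to 0.276%.

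As deposited, all 13 peroxins were called lower, and under total-read scaling 7 were, among them both import receptors, Pex6 and both Pex11 genes. Of all tested genes, 33% were lower as deposited and 11.1% under total-read scaling, and of the most abundant quintile 57.1% and 26%. The membrane peroxins insert proteins into the peroxisomal membrane. Pex16, which recruits Pex3 to the membrane, had 1402, 1155 and 1139 normalized counts in WT and 410.1, 545 and 345 in Vps15LKO livers, or 35.2% of the WT mean. Its log2 fold change was −1.52 (limma, standard error 0.17, adjusted p = 7.4e-05), and −0.80 under total-read scaling. The highest Vps15LKO value was below the lowest WT value, and the gene was called lower under both scalings. Pex19, the soluble chaperone of peroxisomal membrane proteins, had 2547, 2453 and 2494 in WT and 1653, 1844 and 1528 in Vps15LKO livers. Its groups did not overlap either, but its log2 fold change of −0.58 (limma, standard error 0.10, adjusted p = 0.000736) turned to 0.15 under total-read scaling, where it was not called, nor was it called under quantile normalization (−0.16). Pex3, the membrane anchor on which Pex19 unloads, fell to 57.6% of WT with a log2 fold change of −0.79 (limma, standard error 0.12, adjusted p = 0.000355), and was not called under total-read scaling (−0.07).

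The import receptors and the dock were called lower as deposited. Pex5, the receptor for the carboxy-terminal signal that most matrix enzymes carry, stood at 46.9% of the WT mean, with a log2 fold change of −1.10 (limma, standard error 0.12, adjusted p = 6.95e-05). Pex7, the receptor for the amino-terminal signal carried by Phyh, Agps and the Acaa1 thiolases, stood at 50.2% with −0.99 (limma, standard error 0.14, adjusted p = 0.000241). The ratio of Pex5 to Pex7 reads was 1.64, 1.84 and 1.97 in WT and 1.67, 1.73 and 1.64 in Vps15LKO livers, and these ranges overlapped. Both receptors were also called lower under total-read scaling (−0.37 and −0.26). The docking peroxins Pex13 and Pex14, which receive the loaded receptors, stood at 54.5% and 56.4% of WT, with log2 fold changes of −0.89 and −0.83, and neither was called under total-read scaling (−0.16 and −0.10).

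Pex2 and Pex10 are RING ubiquitin ligases that mark Pex5 for recycling, and Pex6 is an ATPase held at the membrane by Pex26 that extracts it. Pex6 was lowest of these in percent of WT, at 40.2%, with a log2 fold change of −1.33 (limma, standard error 0.14, adjusted p = 5.53e-05) and −0.60 under total-read scaling. Pex26 stood at 47.1% and Pex2 at 57.7%, with log2 fold changes of −1.08 and −0.79. Under total-read scaling Pex26 stayed called lower (−0.35), and Pex2 and Pex10 were not called (−0.06 and −0.04). Pex10, the scarcest peroxin per kilobase, stood at 59.7% with the widest error of the peroxins, −0.76 (limma, standard error 0.24, adjusted p = 0.0193). Its call was lost without WT replicate 3 (adjusted p = 0.0588, limma), without Vps15LKO replicate 2 (adjusted p = 0.0529, limma) and under upper-quartile scaling (adjusted p = 0.0530, limma). Over the 9 peroxins whose liver values are not printed here, levels in Vps15LKO liver were 40.2% to 59.7% of WT and adjusted p ranged from 3.61e-05 to 0.0193 (limma).

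Pex11 proteins elongate the membrane before peroxisomes divide, and Pex11a is the form induced by PPARα. Pex11a had 1349.8, 1267 and 1020.4 normalized counts in WT and 427, 536 and 319.7 in Vps15LKO livers, a log2 fold change of −1.52 (limma, standard error 0.19, adjusted p = 0.000137). Pex11g had 526, 531 and 596 in WT and 191, 276 and 167 in Vps15LKO livers, a log2 fold change of −1.41 (limma, standard error 0.18, adjusted p = 0.000151). Neither gene's groups overlapped, and under total-read scaling the values were −0.80 and −0.69, both called lower.

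**Figure D3:**
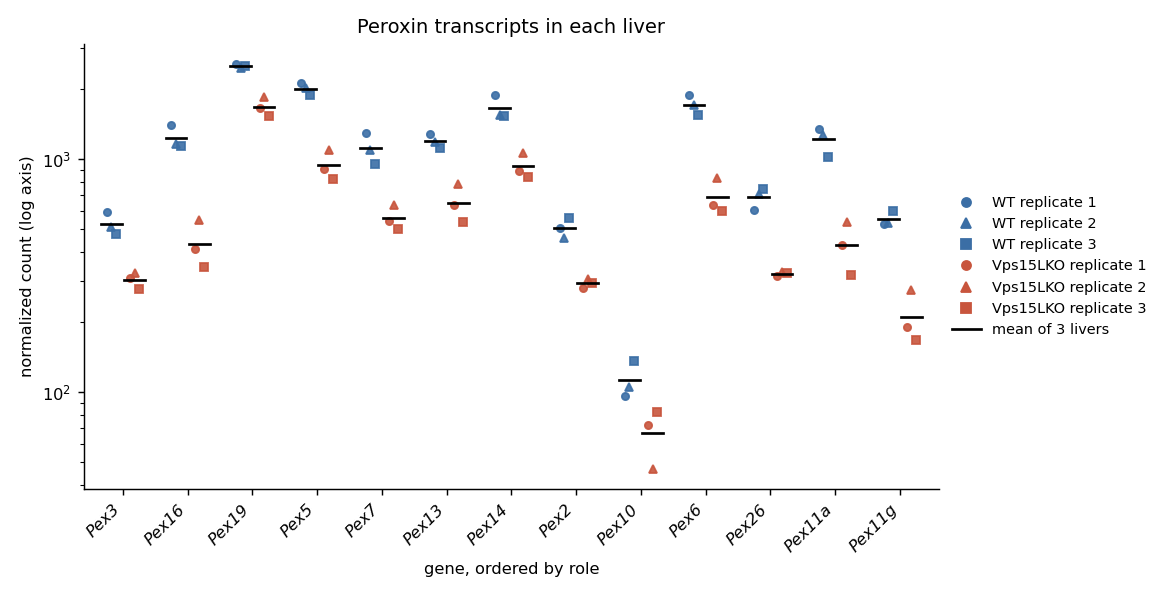
Normalized counts (vertical log axis) of the 13 peroxins in each liver, with a symbol for each replicate and a line at the mean of 3 livers. For every gene the Vps15LKO symbols lie below the WT symbols, and Vps15LKO replicate 2 is the highest Vps15LKO liver for 12 of 13. Such a lack of overlap was found for 36.8% of all tested genes and 61.5% of the most abundant quintile.

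As deposited, 8 of 8 genes of the β-oxidation core were called lower, and total-read scaling gave 5 lower and 1 higher, where 33% and 11.1% of all tested genes were lower under the respective scalings. The core had a median log2 fold change of −1.34. Scp2 encodes both the thiolase for branched-chain and bile acid intermediates and a lipid carrier protein, and it fell furthest. It had 55641, 52652 and 67492 normalized counts in WT and 9555, 15465 and 7139.9 in Vps15LKO livers, or 18.3% of WT. The difference on the log2 scale was −2.52 (limma, standard error 0.28, adjusted p = 8.27e-05), and −1.79 under total-read scaling. All 3 Vps15LKO livers were far below the WT livers.

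Acaa1b, a thiolase of straight chains, had 14727, 12769.5 and 10113 normalized counts in WT and 3283, 5039.5 and 2321 in Vps15LKO livers, a log2 fold change of −1.88 (limma, standard error 0.27, adjusted p = 0.000306). Acaa1a, its neighbour with fewer reads per kilobase, stood at 45.2% of WT with −1.15 (limma, standard error 0.12, adjusted p = 4.68e-05). The ratio of Acaa1b to Acaa1a reads was 5.29, 5.13 and 4.44 in WT and 2.82, 4.05 and 2.31 in Vps15LKO livers, without overlap. The pair is uncertain at the level of single reads, because 30.5% of the 50-base stretches of Acaa1b transcripts also occur in Acaa1a, and how shared reads were counted is not stated.

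Hsd17b4, the multifunctional enzyme that hydrates and oxidizes branched-chain and bile acid intermediates, had 7565, 7412 and 6913 normalized counts in WT and 2218, 3179 and 1894 in Vps15LKO livers. Its log2 fold change was −1.62 (limma, standard error 0.18, adjusted p = 7.41e-05). Amacr, the racemase that prepares methyl-branched substrates, had 3254, 2988 and 3522 and 1083, 1455 and 875, with a log2 fold change of −1.54 (limma, standard error 0.17, adjusted p = 8.15e-05). In both, the WT livers were close together and every Vps15LKO liver was lower. Ehhadh, the multifunctional enzyme of the straight-chain pathway, stood at 49.7% of WT, with −1.08 (limma, standard error 0.26, adjusted p = 0.00538). It was not called under total-read scaling (−0.36) or quantile normalization (−0.44).

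The acyl-CoA oxidases carry out the first step. Acox2, the oxidase of bile acid intermediates and branched-chain acyl-CoA, had 4906, 4408 and 3725 normalized counts in WT and 3336, 3520.1 and 3128 in Vps15LKO livers. Its log2 fold change of −0.38 (limma, standard error 0.12, adjusted p = 0.0233) was the smallest among called genes of the list, and under total-read scaling it was 0.35 and called higher. The call as deposited was lost without WT replicate 1, WT replicate 2, Vps15LKO replicate 1 or Vps15LKO replicate 3 (adjusted p = 0.0654 to 0.077, limma), and under upper-quartile scaling (adjusted p = 0.0641, limma). Acox3, an oxidase of branched-chain substrates, had 753, 791 and 1111 in WT and 541, 554 and 509.9 in Vps15LKO livers, a log2 fold change of −0.70 (limma, standard error 0.15, adjusted p = 0.00266) and 0.02 under total-read scaling. In reads per kilobase of exon, scaled to the library total (RPKM), Acox2 moved from rank 15 to rank 7 among the 40 genes (51.7 in WT and 65.6 in Vps15LKO livers).

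The α-oxidation enzymes remove a carbon from phytanic acid, whose methyl branch blocks β-oxidation. Phyh, the hydroxylase of the first step, had 45131, 40418 and 42122 normalized counts in WT and 9068, 13214 and 6514 in Vps15LKO livers, a log2 fold change of −2.21 (limma, standard error 0.25, adjusted p = 8.66e-05). Hacl1, the lyase that cleaves the product, had 6203, 5729.6 and 4316 and 1057, 1646 and 661, a log2 fold change of −2.35 (limma, standard error 0.29, adjusted p = 0.000151). They stood at 22.6% and 20.7% of WT and stayed called lower under total-read scaling (−1.48 and −1.63). Hacl1 shares exon bases with Gm49387 on the same strand over 27.4% of its 50-base stretches, so part of its signal cannot be assigned.

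The auxiliary enzymes that shift or reduce double bonds of unsaturated fatty acids were lower in 4 of 4 cases under both scalings. Among all tested genes 33% were lower as deposited and 11.1% under total-read scaling, and in the most abundant quintile 57.1% and 26%. Pecr, the trans-enoyl-CoA reductase, had 3746, 3315 and 3134 normalized counts in WT and 668, 962 and 564 in Vps15LKO livers, and the largest change of the group, −2.25 (limma, standard error 0.18, adjusted p = 1.48e-05). Eci2, an enoyl-CoA isomerase, had 4327, 3564 and 3375 and 1175, 1476 and 1038, with a log2 fold change of −1.62 (limma, standard error 0.15, adjusted p = 2.93e-05). Decr2, the dienoyl-CoA reductase, had 3205, 3094 and 3264 and 1030.2, 1475 and 811, with −1.57 (limma, standard error 0.19, adjusted p = 0.000126). No Vps15LKO liver reached the WT range in any of these genes, as was so for 36.8% of all tested genes. Ech1, the dienoyl-CoA isomerase, had 3048, 2494 and 2299.7 and 1142, 1424 and 987, a log2 fold change of −1.15 (limma, standard error 0.16, adjusted p = 0.000234).

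Enzymes that release or trim the products held both the largest fall and the genes without a call. Nudt7, a hydrolase of peroxisomal CoA and acyl-CoA, lies on chromosome 8 from 114133557 to 114154739 (GRCm38). It had 12769, 10607 and 18179 normalized counts in WT and 662, 1494 and 385 in Vps15LKO livers, or 6.12% of the WT mean. Vps15LKO replicate 2, the highest of its genotype, was still far below WT replicate 2, the lowest WT liver. The fitted log2 fold change was −4.22 (limma, standard error 0.43, adjusted p = 4.9e-05), −3.49 under total-read scaling, and between −4.74 and −3.76 with each liver left out in turn. In RPKM it went from rank 7 (109.5) to rank 27 (10.7) among the 40 genes.

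Nudt19, the CoA hydrolase of the same family that is best known from kidney, had 1227, 1090.5 and 786 normalized counts in WT and 1011, 929 and 1151 in Vps15LKO livers. The groups overlapped and the gene was not called (0.01 (limma, standard error 0.17, adjusted p = 0.950), interval −0.36 to 0.39), while under total-read scaling it was called higher (0.74). The ratio of Nudt7 to Nudt19 reads was 10.4, 9.73 and 23.1 in WT and 0.655, 1.61 and 0.335 in Vps15LKO livers. An antisense transcript, B230322F03Rik, covers 35% of Nudt19's exon bases, and whether strand was used in the counting is not stated.

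The carnitine acyltransferases load shortened acyl groups onto carnitine for export to mitochondria. Crot, which acts on medium chains, had 12419, 11019.5 and 13732 normalized counts in WT and 4969, 8188 and 3355 in Vps15LKO livers, a log2 fold change of −1.26 (limma, standard error 0.28, adjusted p = 0.00403) that was not called under total-read scaling (−0.53) or quantile normalization (−0.36). Crat, which acts on acetyl and other short chains, had 1327, 1064 and 573 in WT and 777, 1072 and 753 in Vps15LKO livers. Its groups overlapped, WT replicate 3 being the lowest of the 6 livers, and it was not called as deposited (−0.12 (limma, standard error 0.28, adjusted p = 0.721), interval −0.77 to 0.53). Without WT replicate 3 its log2 fold change was −0.47 and called lower, without WT replicate 1 it was 0.13, and under total-read scaling it was 0.60 and called higher, so no direction is given for it. The ratio of Crot to Crat reads was 9.36, 10.4 and 24.0 in WT and 6.39, 7.64 and 4.46 in Vps15LKO livers.

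The thioesterases Acot4 and Acot8 hydrolyse acyl-CoA in the matrix. Acot4, which prefers succinyl-CoA and other dicarboxylic CoA esters, had 1075, 993 and 484 normalized counts in WT and 376, 441 and 219 in Vps15LKO livers. WT replicate 3 was again the low WT liver, just above Vps15LKO replicate 2, and the log2 fold change was −1.27 (limma, standard error 0.34, adjusted p = 0.00927). Acot8, a thioesterase of broad range, had 341, 291 and 311 and 154, 224 and 157, with −0.83 (limma, standard error 0.16, adjusted p = 0.00177). Neither was called under total-read scaling (−0.55 and −0.11), and the ratio of their reads overlapped between the genotypes (3.16, 3.41 and 1.55 in WT and 2.44, 1.96 and 1.40 in Vps15LKO livers).

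The enzymes of ether lipid synthesis were called in opposite directions as deposited, though Gnpat was not called under total-read scaling. Gnpat and Agps act in sequence on the inner face of the peroxisomal membrane, Gnpat by adding an acyl group to dihydroxyacetone phosphate and Agps by exchanging it for a fatty alcohol. Agps, on chromosome 2 from 75832177 to 75931350 (GRCm38), had 206, 231 and 239 normalized counts in WT and 341, 349 and 363 in Vps15LKO livers, and every Vps15LKO liver was above every WT liver. Its log2 fold change was 0.64 (limma, standard error 0.10, adjusted p = 0.000636), with a range of 0.58 to 0.69 over livers left out and 1.37 under total-read scaling. Among the 39 tested genes of the list it was the scarcest per kilobase in WT liver (1.06 RPKM). Such a lack of overlap in the higher direction was found for 36.4% of all tested genes.

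Gnpat, on chromosome 8 from 124863033 to 124890057, had 1061, 1079 and 964 normalized counts in WT and 625, 730.1 and 619 in Vps15LKO livers, all lower than in WT. The log2 fold change was −0.65 (limma, standard error 0.10, adjusted p = 0.000466) as deposited and 0.07, not called, under total-read scaling. The ratio of Agps to Gnpat reads does not depend on the scaling, and was 0.194, 0.214 and 0.248 in WT and 0.546, 0.478 and 0.586 in Vps15LKO livers. Far1, the reductase outside the list that supplies the fatty alcohol, had 41.1, 45 and 56.6 and 138, 134 and 161, a log2 fold change of 1.59 (limma, standard error 0.17, adjusted p = 7.15e-05) and 2.30 under total-read scaling. Its relative Far2 had 431, 387 and 434 and 286, 328 and 292, with −0.47 (limma, standard error 0.10, adjusted p = 0.00375) as deposited and 0.26, not called, under total-read scaling. Far2 was chosen after its values were seen.

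**Figure D4:**
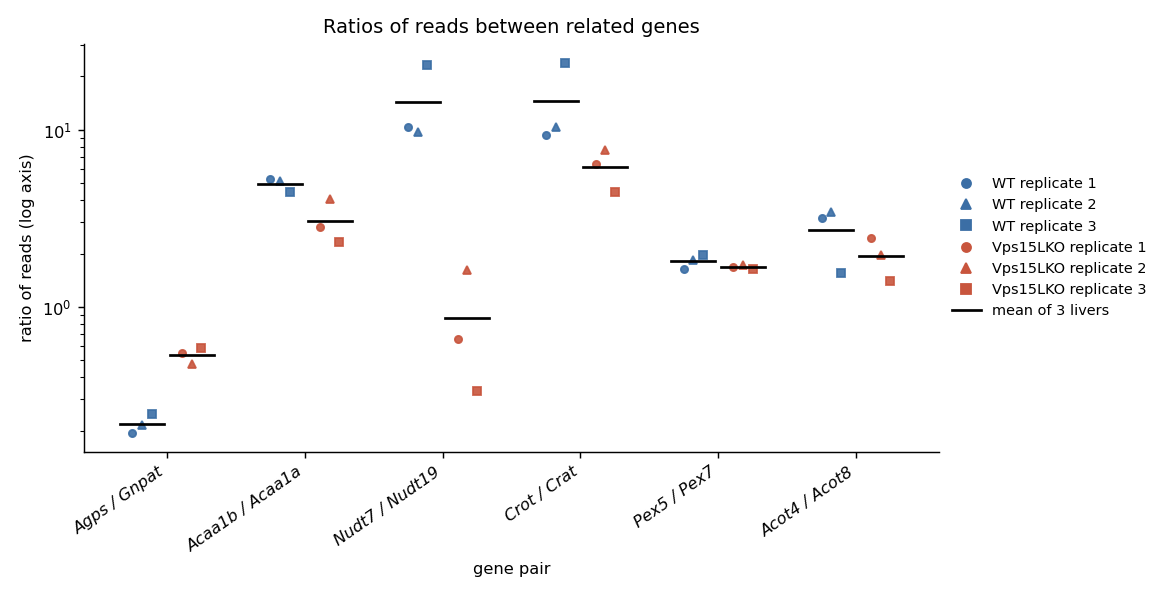
Ratio of the reads of the first gene to those of the second (vertical log axis) in each liver, for 6 pairs of related genes, with a line at the mean of 3 livers. The Agps to Gnpat ratio is higher in the Vps15LKO livers, 3 other ratios are lower there without overlap, and Pex5 to Pex7 and Acot4 to Acot8 overlap.

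For these 6 ratios, chosen with the values of the genes known, a two-sided exact permutation test on the log2 ratios gave p = 0.1 (adjusted p = 0.15) for each of the 4 without overlap. That is the smallest p that 3 livers against 3 allow, so none could pass 0.05. It gave p = 0.3 (exact, adjusted 0.36) for Acot4 to Acot8 and p = 0.4 (exact, adjusted 0.4) for Pex5 to Pex7. The largest shift was that of Nudt7 to Nudt19, −4.23 on the log2 scale, followed by Agps to Gnpat at 1.30 and Crot to Crat at −1.14.

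Catalase, the oxidases Hao1 and Pipox, which form hydrogen peroxide, and the aminotransferase Agxt were called lower as deposited. Cat, catalase, which splits hydrogen peroxide, was the most abundant gene of the list per kilobase. It had 92883, 93579.8 and 89181 normalized counts in WT and 28587, 35084 and 20611 in Vps15LKO livers, a log2 fold change of −1.74 (limma, standard error 0.26, adjusted p = 0.000441). The WT livers lay within a narrow range, and the Vps15LKO mean was 30.6% of the WT mean, and Cat kept 28.5% to 31.3% of the reads of the list in WT and 29.8% to 32.8% in Vps15LKO livers. Hao1, the glycolate oxidase, had 3923, 3664 and 4876 and 833, 1429 and 635, with −2.18 (limma, standard error 0.26, adjusted p = 0.000126). Agxt, the aminotransferase that clears the glyoxylate made by Hao1, had 5155, 4334 and 4349 and 1141, 1619 and 865, with −1.97 (limma, standard error 0.21, adjusted p = 5.46e-05). Pipox, which oxidizes pipecolic acid and sarcosine, had 8222, 7614 and 5739.8 and 1746, 2299 and 1386, with −2.0 (limma, standard error 0.20, adjusted p = 4.46e-05). None of these groups overlapped, and all 4 genes stayed called lower under total-read scaling, between −1.45 and −1.02. Of all tested genes, 36.8% lacked overlap in this direction and 11.1% were lower under total-read scaling, and of the most abundant quintile 61.5% and 26%. Under quantile normalization Cat was not called (−0.28, limma adjusted p = 0.214). Dao, the D-amino acid oxidase, had 0 reads in each WT liver and 1, 0 and 2 reads in the Vps15LKO livers, which did not pass the filter of 20 normalized counts, so it was not tested. Both groups lay at or under 3 reads per library, the limit that a count of 0 allows, so no fold is given.

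**Figure D5:**
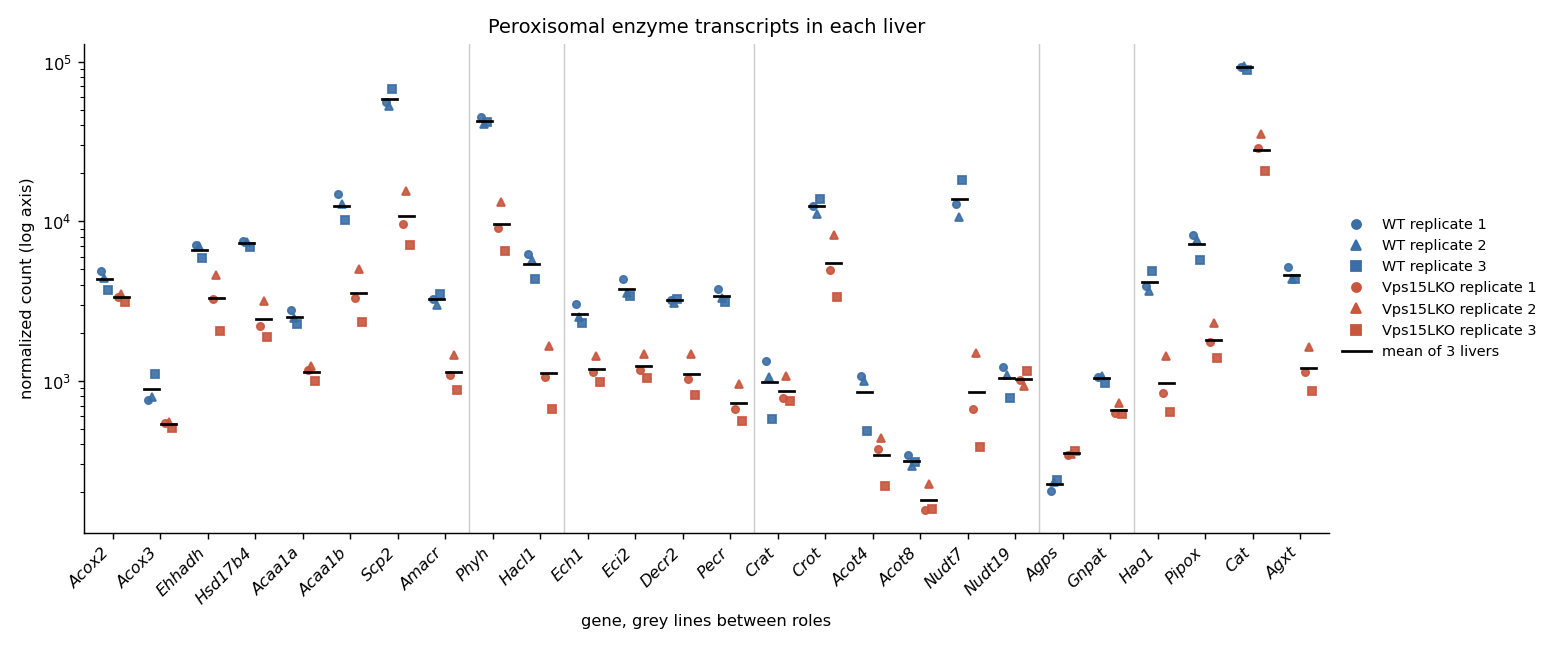
Normalized counts (vertical log axis) of the 26 tested enzymes in each liver, with a symbol for each replicate, a line at the mean of 3 livers and grey lines between roles. Nudt7 shows the widest gap between genotypes, Crat and Nudt19 overlap, and Agps is the gene whose Vps15LKO symbols lie above the WT symbols.

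The Vps15LKO livers were not alike. Vps15LKO replicate 2 had the highest value of its genotype for 36 of the 39 genes and replicate 3 the lowest for 33, where over the most abundant quintile of all genes the percents were 63.7% and 62.3%. Under total-read scaling replicate 2 was still highest for 30 of 39 (76.9%), against 37.3% of the most abundant quintile and 20.4% of all tested genes. The median coefficient of variation was 10.9% among WT and 23.6% among Vps15LKO livers, and in the most abundant quintile it was 8.63% and 8.72%. It reached 68.1% for Nudt7 in Vps15LKO liver. The summed hepatocyte markers followed the same order, with 10.6% of the reads in replicate 2, 9.62% in replicate 1 and 8.24% in replicate 3, and the summed cholangiocyte and progenitor markers the opposite order, with 0.0901%, 0.123% and 0.194%. Their part in the spread of the peroxisome genes was not tested. Among the WT livers, replicate 1 was highest for 25 and replicate 3 lowest for 23 of the 39 genes (64.1% and 59.0%), where the percents of the most abundant quintile were 48.9% and 51.8%.

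The remaining peroxisome genes were followed in lists outside the 40, to be read beside the 33% lower and 33.5% higher among all tested genes as deposited and the 11.1% and 66.7% under total-read scaling. Of 21 other genes for membrane proteins, division and proteolysis, 19 were tested, 14 were called lower and none higher (median log2 fold change −0.78), and total-read scaling gave 7 lower and 6 higher. Mpv17l, a membrane protein linked to peroxide metabolism, and Abcd3, the transporter of branched-chain and bile acid CoA esters, fell most, at −2.56 (limma, standard error 0.21, adjusted p = 1.71e-05) and −2.30 (limma, standard error 0.24, adjusted p = 6.24e-05). Slc25a17, a carrier of CoA and its relatives, was the called gene with the least change, −0.40 as deposited and 0.32, called higher, under total-read scaling.

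Of the 22 other peroxisomal enzymes found in the table, 19 were tested, 16 were lower and 1, Far1, was higher (median −1.44), and total-read scaling gave 12 lower and 3 higher, beside the same shares of all tested genes. Hao2, a relative of Hao1 chosen after its values were seen, missed the filter with 1, 0 and 2 reads in WT and 49, 85 and 20 reads in Vps15LKO livers. Slc27a2, which activates very long-chain fatty acids and bile acids, and Uox, urate oxidase, fell most, at −2.62 (limma, standard error 0.27, adjusted p = 5.44e-05) and −2.61 (limma, standard error 0.24, adjusted p = 2.83e-05). Prdx5, a peroxiredoxin shared with mitochondria, was the called gene with the least change, with −0.35 as deposited and 0.38, called higher, under total-read scaling.

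Ppara, the receptor that drives many of these enzymes, had 1966, 2573 and 2387 normalized counts in WT and 626, 717 and 426 in Vps15LKO livers, a log2 fold change of −1.99 (limma, standard error 0.19, adjusted p = 3.52e-05) and −1.27 under total-read scaling. Its partner Rxra had −1.42, while Pparg and Ppard, the receptors of fat storage and of broad expression, were higher at 1.2 (limma, standard error 0.26, adjusted p = 0.00352) and 0.99 (limma, standard error 0.09, adjusted p = 3.27e-05). Of the 8 receptors and partners, 5 were lower and 2 higher as deposited, and total-read scaling gave 2 lower and 4 higher, where 33% and 33.5% of all tested genes were lower and higher as deposited and 11.1% and 66.7% under total-read scaling. Of 19 PPARα targets outside the peroxisome, 14 were lower and 4 higher, with a median of −1.01, and total-read scaling gave 9 lower and 4 higher, to be read beside those same percents. The fatty acid ω-hydroxylases Cyp4a14 and Cyp4a10 fell most, at −3.95 (limma, standard error 0.65, adjusted p = 0.00068) and −3.54 (limma, standard error 0.47, adjusted p = 0.000208). Pdk4, the inhibitor of pyruvate dehydrogenase, and Fgf21, a fasting hormone, rose most, at 2.52 (limma, standard error 0.34, adjusted p = 0.000246) and 2.50 (limma, standard error 0.56, adjusted p = 0.00377). The list therefore held large changes in both directions.

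Of 5 genes for the autophagy of peroxisomes, 3 were lower and 1 higher as deposited, and under total-read scaling none was lower and 4 were higher, where 66.7% of all tested genes were called higher. Sqstm1, the receptor p62, had 10952, 10595 and 9025 normalized counts in WT and 19129, 18332 and 18299 in Vps15LKO livers, with 0.87 (limma, standard error 0.14, adjusted p = 0.000563). Nbr1, the receptor that binds peroxisomes, had 3398, 4092 and 3629 and 2514, 2805 and 2272, with −0.55 (limma, standard error 0.12, adjusted p = 0.00282) as deposited and 0.17, not called, under total-read scaling. Marchf5, a ubiquitin ligase, and Bnip3l, a mitochondrial and peroxisomal receptor, had −0.40 and −0.34 as deposited, and total-read scaling put both higher, past the threshold (0.32 and 0.39).

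The promoters of the list were searched for the E-box CACGTG bound by Bmal1–Clock and for the direct repeat bound by PPARα (the hexamer AGGTCA repeated with 1 base between), also in a looser form with AGGNCA as the hexamer, on either strand. The windows, 250 bases before to 50 after each RefSeq start in GRCm38.p6, were at hand for 35 of the 40 genes, in 42 windows. CACGTG was found for Acot4, Dao and Gnpat, in 7.14% of the windows of the list and 7.15% of all 32851 windows. The first repeat was found in none of the 42 and in 0.0396% of all windows, and the looser repeat, which includes the first, in none of the 42 and in 0.381% of all. No match says only that these letters are not in the window. The 3 matches are shown with 9 bases on each side and the motif in capitals, for a gene that was not tested (Dao) and for 2 genes called lower as deposited and not called under total-read scaling (Acot4 and Gnpat). They start 66, 85 and 224 bases before the start of Acot4, Dao and Gnpat, at chr12:84038313-84038318, chr5:114004723-114004728 and chr8:124862809-124862814 on the forward strand.
Acot4: tcacaacacCACGTGggagtggcg
Dao: cattaagcgCACGTGacagtcgga
Gnpat: ccaggagacCACGTGggccgtggt

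The 250 bases before the RefSeq start are given for the gene that was called higher, for its neighbour in the pathway and for the gene with the largest fall, all on the forward strand of GRCm38.p6, with CACGTG in capitals where it occurs. Those of Agps (chr2:75831927-75832176) are 70% G or C, those of Gnpat (chr8:124862783-124863032) 67.6%, and those of Nudt7 (chr8:114133324-114133573) 49.2%.
Agps: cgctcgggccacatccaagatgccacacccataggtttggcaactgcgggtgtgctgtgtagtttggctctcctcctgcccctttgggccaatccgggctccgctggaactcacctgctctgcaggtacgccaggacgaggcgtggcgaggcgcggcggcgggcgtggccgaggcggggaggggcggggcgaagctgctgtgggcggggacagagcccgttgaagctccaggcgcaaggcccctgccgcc
Gnpat: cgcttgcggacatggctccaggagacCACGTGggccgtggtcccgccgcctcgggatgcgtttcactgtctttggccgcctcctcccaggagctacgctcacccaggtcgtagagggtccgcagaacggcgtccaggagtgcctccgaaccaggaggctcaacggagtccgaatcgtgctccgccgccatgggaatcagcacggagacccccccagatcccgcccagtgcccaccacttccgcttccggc
Nudt7: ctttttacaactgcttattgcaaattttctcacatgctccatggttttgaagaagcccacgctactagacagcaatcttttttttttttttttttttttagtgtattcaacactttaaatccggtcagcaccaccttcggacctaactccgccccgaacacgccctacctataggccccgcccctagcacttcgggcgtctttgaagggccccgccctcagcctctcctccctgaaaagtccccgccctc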

How the data were processed

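RNA-seq covered 3 WT and 3 Vps15LKO livers, with 1 library per mouse and groups taken from the sample labels. According to the methods, reads passed a SOAPnuke quality filter before HISAT2 alignment to GRCm38 and gene counting in featureCounts. The deposited values are a signal of normalized counts, which the authors made by dividing each library's counts by its DESeq2 size factor. The versions of those programs, strand use and the handling of multi-mapping reads are not given in the sources used here. All values (100% per library, within 0.02) were whole multiples of the worth of 1 read, which gave back whole reads.

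The filter of 20 normalized counts in 3 or more livers left 15430 genes, which were compared with limma 3.58.1 (trend) in R 4.3.3 on log2(normalized count + 1), which understates changes of low genes, with Benjamini-Hochberg adjustment. Symbols and positions come from GENCODE M21, which matched 55227 genes. Alternatives were other pseudocounts, filters, scalings (TMM, upper quartile, quantile, total reads), thresholds, no trend, edgeR 4.0.16, DESeq2 1.42.0, limma voom, each liver left out and replicate number as a block. The fit was first tested on simulated data. Some genes outside the 40 are not reported here by name. The 40 genes and all lists were chosen with earlier results of these data known.

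Liver values are printed for the 3 largest changes among peroxins, the 4 largest per enzyme role in each direction, uncalled genes and genes whose direction changed with the scaling, and for relatives named beside them. Plots were drawn with matplotlib 3.10.9. The limma p-values weigh each difference against the spread between these mice, which the fit draws toward that of genes at similar levels. Replicate chi-square values per gene were 14.6 to 40.8, so no library was a copy.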

Additional observations from a re-analysis of the deposited data

How the results depend on the processing

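Of the 39 tested genes, 23 had the same sign and call in all 22 alternatives, 31 in all but total-read scaling and 35 with each liver left out in turn. Apart from livers left out, the medians and counts that moved were those under total-read scaling (23 lower, 4 higher, medians −0.53 for all, −0.26 for peroxins and −0.83 for enzymes), quantile normalization (medians −1.01 for all and −1.03 for enzymes) and the genes that share no exon base with another gene, an alternative chosen after seeing the data (20 lower of 21, median −1.52). With each liver left out the median of the 39 moved to −1.47 without Vps15LKO replicate 2 and to −1.06 without Vps15LKO replicate 3, the ends of its range. The median over the peroxins ranged from −1.09 to −0.88 and over the enzymes from −1.75 to −1.37, and 35 to 36 genes were lower. Single genes that changed sign were Crat (0.00086 under upper-quartile scaling, 0.077 under quantile normalization, 0.60 under total-read scaling and 0.13 without WT replicate 1), Pex19 (0.15), Acox2 (0.35), Acox3 (0.022) and Gnpat (0.071) under total-read scaling, Acox2 under quantile normalization (0.23), and Nudt19 (−0.0057 with DESeq2, −0.17 without WT replicate 3 and −0.069 without Vps15LKO replicate 3). Crat was called lower without WT replicate 3 (−0.47). Cat (−0.28), Crot (−0.36), Ehhadh (−0.44) and Pex19 (−0.16) were not called under quantile normalization, nor Pex10 (−0.64) and Acox2 (−0.25) under upper-quartile scaling. The causes were not tested.

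With replicate number as a block, 36 genes were lower and 1 higher (median −1.26), and no call of the 39 changed. Same-numbered livers did not deviate together (correlations −0.01, −0.01 and 0.05), so the numbers were not used as pairs.

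Reads counted on overlapping or near-identical genes limit single values: 6 of the 40 genes have at least 25% of their 50-base transcript stretches in another gene (Pex14, Pex11g, Acaa1b, Scp2, Hacl1 and Nudt19), and for Scp2 this is the pseudogene Scp2-ps2 (29.7%). Pex10, with 58 reads in its lowest library, had the widest standard error among the peroxins (0.24). The search of member proteins for targeting signals was not run, and protein sequences were not used here.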
